A study of Caenorhabditis elegans with 18 samples.

Results

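The gene rbm-5 of Caenorhabditis elegans was followed through every transcript form that the deposited event lists assign to it. An entry was taken when its reference gene was rbm-5 alone. These entries numbered 133 of 985857 in the 18 libraries, after repeated lines were removed, and rbm-5 was 1 of 20570 genes named singly. They were found in 16 libraries. In the other 2 libraries, wild type replicate 2 and replicate 3 of the double mutant with n5132, the assembled locus was labelled with rbm-5 and its upstream neighbour T08B2.15 together.

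RBM-5 is an RNA-binding protein related to human RBM5, a spliceosome-associated protein that regulates alternative splicing and is also studied as a candidate tumour suppressor. In human cells RBM5 binds pre-mRNA and contacts spliceosomal proteins while 3′ splice sites are being chosen. The gene uaf-1 encodes the large subunit of U2AF, the factor that reads the polypyrimidine tract at the end of an intron and recruits the U2 snRNP.

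Embryos of 6 strains were sequenced, with 3 libraries each: wild type (N2), the single mutants rbm-5(n5119), uaf-1(n4588) and rbm-5(n5132), and double mutants that join uaf-1(n4588) to either rbm-5 allele, n5119 or n5132. The labels do not describe the molecular lesion of any allele. Worms were grown at 20 °C, eggs were released from synchronized adults with bleach, and total RNA was used. The labels number the replicates without saying whether each had its own culture, so the p-values measure no more than the spread among these libraries.

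Libraries held 53772–55828 entries, of which 26.7–33.7% had an FPKM of 0. Read depth is unknown. The sample label was checked with marker genes. All 10 embryo markers were listed, with median end levels of 11.3–573 FPKM. Of 7 adult and larval markers 5 were listed, with medians of 0–0.232 FPKM. Replicate 1 libraries stood apart, since their 10 highest start events held 21.3–43.7% of the summed start FPKM, against 7.57–11.8% in replicates 2 and 3.

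In the WBcel235 annotation (release 115) rbm-5 lies at I:6215727–6219912 on the plus strand. It has 7 transcripts under 4 isoform letters, and T08B2.5a.1 has 17 exons. The coding sequence of 2 transcripts, T08B2.5a.1 and T08B2.5b.1, runs from the start codon in exon 1 to a stop codon in exon 17. The other 5 keep intron 4, where a stop codon ends their reading frame at position 6216617. T08B2.5b.1 alone uses an acceptor of exon 3 that lies 3 bases upstream of the usual one. A long form of exon 4, whose acceptor lies 63 bases (21 codons) upstream of the other, is annotated in 3 transcripts. The gene overlaps T08B2.15 by 5 bases, and rps-17, a small ribosomal subunit protein gene, lies downstream on the other strand.

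**Figure D1:**
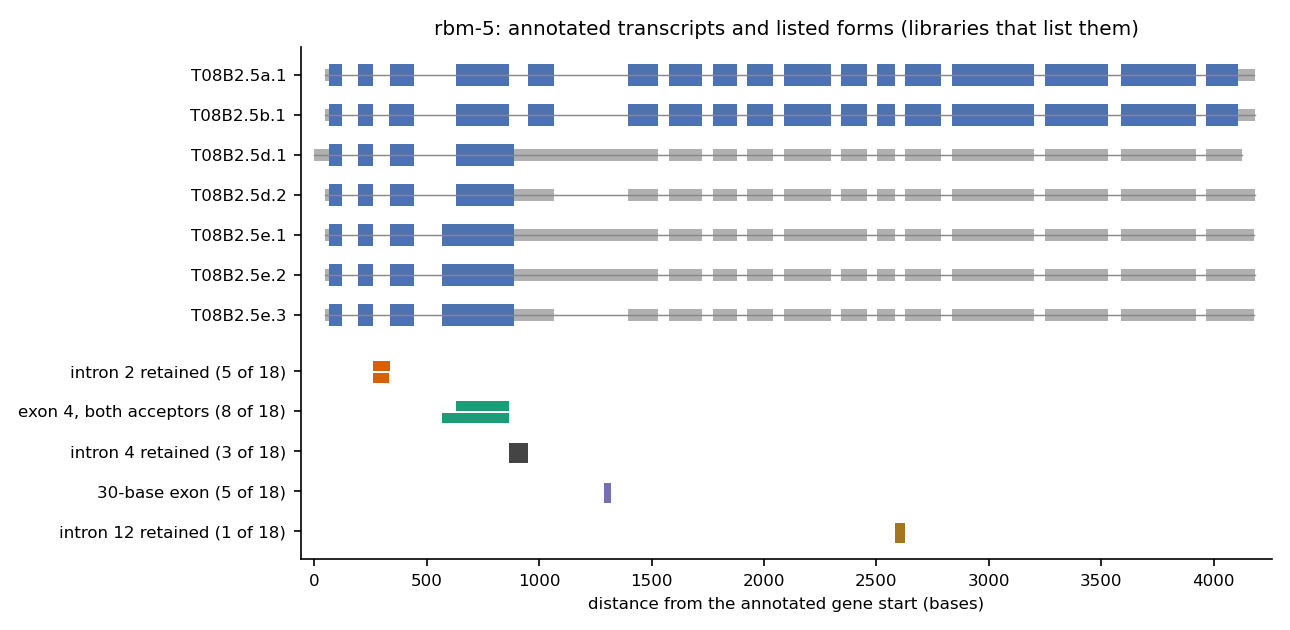
Annotated transcripts of rbm-5 (blue, coding exon parts; grey, untranslated exon parts) and the splicing forms listed in the libraries (coloured boxes), against distance in bases from the annotated gene start. Intron 2 retention is listed in 5 of 18 libraries, the exon 4 acceptor pair in 8, intron 4 retention in 3, a 30-base exon inside intron 5 in 5, and intron 12 retention in 1.

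Of all rbm-5 events, retention of intron 2 had the smallest p in the listing comparisons. Of the libraries that carry n5132, the form with this intron was listed by 3 of 3 single mutants and 2 of 3 double mutants. None of the 12 libraries without n5132 listed it. Only 6 of these 12 listed any splicing entry of rbm-5, against 5 of the 6 with n5132, so the others could show no form. It had 64.6, 19.2 and 21.4 FPKM in rbm-5(n5132) replicates 1, 2 and 3. In the double mutant it had 91.7 and 18.1 FPKM in replicates 1 and 2. Replicate 1 was thus the highest of the listing libraries in both strains. In rbm-5(n5132) replicates 2 and 3 lay close together, while replicate 3 of the double mutant did not list the form.

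The retained intron spans I:6215988–6216061, 74 bases between exons 2 and 3, inside the coding sequence. The caller also gave the retention against the earlier acceptor, where the intron has 71 bases. Neither length is a multiple of 3, so the kept intron is not a whole number of codons. In the same 5 libraries both spliced alternatives of the event were listed at 0.

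Across the series this split of the libraries was rare, and its adjusted p did not pass. With 6 against 12 libraries, even a full split gives a p too large for a single event to pass over 31362 events. Many events would have to split as fully together, so the adjusted p cannot decide whether this split is unusual. By Fisher's exact test, two-sided, 5 of 6 n5132 libraries against 0 of 12 others gave p = 0.00070028 and an adjusted p of 1 over 31362 events. No event passed for n5132 (0%), and 183 events (0.584%) had an unadjusted p under 0.05. Being listed in at least 5 of 6 n5132 libraries and no other was found for 0.00957% of all events, 0.361% of the 831 events listed in 5 libraries, and 0.0259% of 11578 retained introns. These 3 events were the 2 rbm-5 entries, which are readings of a single intron, and one of H27A22.1. Only 1 further event had as small a p, a retained intron of mars-2 listed in 0 of 6 n5132 and 11 of 12 other libraries. Both genes are named because they share this count and were chosen after their values were seen.

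The other rbm-5 allele did not show the form: 0 of 6 n5119 libraries listed it. The labels do not say what either allele changes. Of these 6 libraries, 2 listed any splicing entry of rbm-5. For n5119 the listing test had the same limit on its adjusted p and called 0% of events. An unadjusted p under 0.05 was found for 0.481%, and for 0.513% with either rbm-5 allele. In replicates 2 and 3 alone the n5132 split was 3 of 4 against 0 of 8 (p = 0.0181818, adjusted p = 1, Fisher's exact test).

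The retained form did not hold all of the rbm-5 signal. In each of the 5 libraries its FPKM equalled the whole start level, yet it made up a smaller share of the end level in 4 of them. The share of the end level was 0.639, 0.285 and 0.229 in rbm-5(n5132) replicates 1, 2 and 3. It was 1 and 0.303 in the double mutant replicates 1 and 2.

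In 3 of these libraries the lists showed where the remainder lay. In rbm-5(n5132) replicate 2 an end inside exon 15, at position 6219092, carried the 19.2 FPKM of the retained form, and the last exon carried 48.0 FPKM. In replicate 3 the early end lay in exon 11, at 6218154, with 21.4 FPKM against 72.2 FPKM at the last exon. In the double mutant replicate 2 it lay in exon 16, at 6219601, with 18.1 against 41.8 FPKM. In all 3 libraries the last exon ended at the annotated stop codon, position 6219837, and the lists do not state how that second form was spliced at intron 2.

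**Figure D2:**
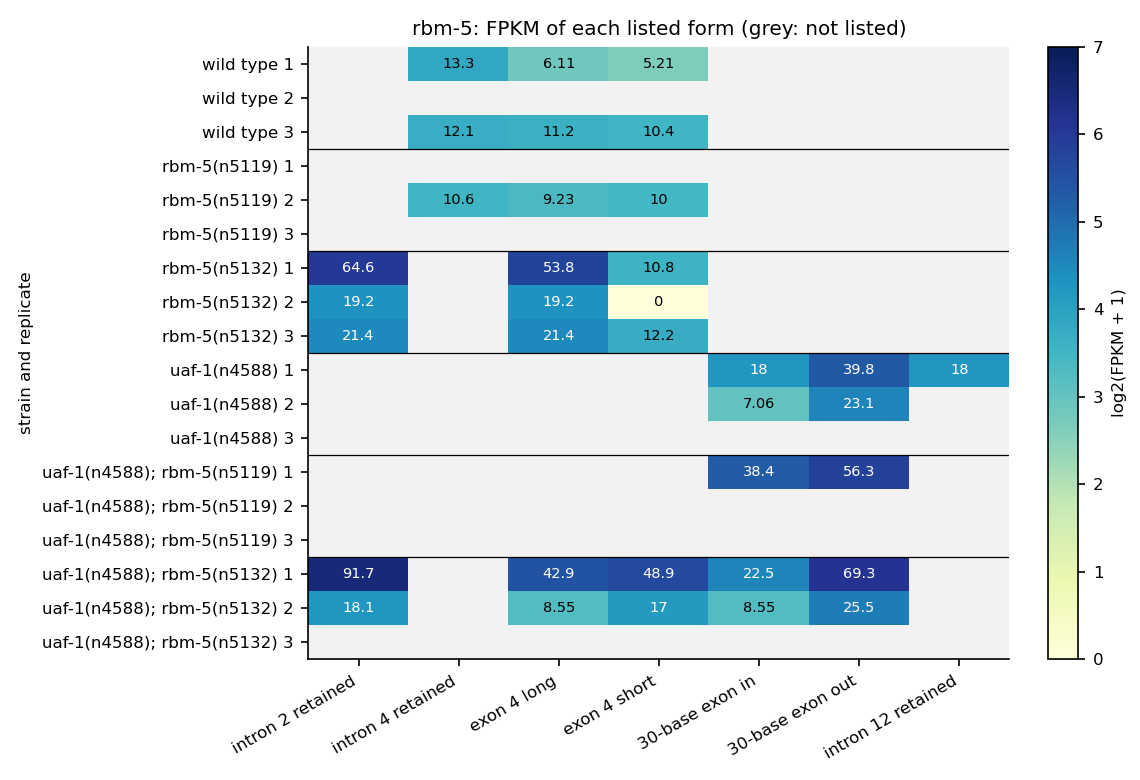
FPKM of each listed rbm-5 splicing form (columns) in every library (rows, strain and replicate number); colour gives log2(FPKM + 1) and grey cells are forms that the library does not list. Intron 2 retention fills only n5132 rows (18.1–91.7 FPKM), the 30-base exon only uaf-1(n4588) rows, and intron 4 retention only wild type and rbm-5(n5119) rows.

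A 30-base exon was listed only with uaf-1(n4588). It lies at I:6217017–6217046 inside intron 5, neither of its splice sites is in the annotation, and its length keeps the reading frame by length alone. The exon was listed in 5 of 9 libraries with uaf-1(n4588) and in 0 of 9 without. Any splicing entry of rbm-5 was listed in 5 of the 9 with uaf-1(n4588) and 6 of the 9 without. By Fisher's exact test, two-sided, p was 0.0294 and the adjusted p was 1 over 31362 events, of which 0% passed for this split. With 9 against 9 libraries even a full split by a single event could not pass, so this adjusted p decides nothing. An unadjusted p under 0.05 was found for 1.18% of events. At least 5 of 9 against 0 of 9 was reached by 0.867% of 4154 skipped exons and 0.453% of all events, and by 14.5% of the 138 skipped exons listed in 5 libraries.

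The form with the exon was the minor one in all 5 libraries. In uaf-1(n4588) replicate 1 it had 18.05 FPKM against 39.8 FPKM without the exon, a share of 0.312. In replicate 2 the values were 7.06 and 23.1 FPKM, a share of 0.234. Replicate 3 did not list the exon.

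Replicate 1 of the double mutant with n5119 had 38.4 FPKM with and 56.3 FPKM without it, the highest share at 0.406. With n5132 the shares were 0.245 (22.5 against 69.3 FPKM) and 0.251 (8.55 against 25.5 FPKM) in replicates 1 and 2. Over the end level, the measure used for intron 2, the share was 0.312 and 0.130 in uaf-1(n4588), 0.406 in the double mutant with n5119, and 0.245 and 0.143 in that with n5132. The double mutant with n5132 and uaf-1(n4588) were compared directly, since each had 2 libraries. The log2 ratio of the forms differed by −0.19 (SE 0.534, 95% interval −1.64 to 1.27, limma adjusted p = 0.999 over 1876 events, of which 0% passed), an interval that leaves large differences in either direction possible.

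Intron 4, which is annotated as kept in 5 of 7 transcripts, was listed as retained in wild type and rbm-5(n5119) only. Each of these libraries listed 1 form with the intron and 3 without it, from both acceptors of exon 4 and from a start inside that exon. Wild type replicate 1 had 13.3 FPKM with the intron and 17.4 FPKM over the forms without, a retained share of 0.434. Wild type replicate 3 had 12.1 and 21.7 FPKM, a share of 0.358. In rbm-5(n5119) replicate 2 the values were 10.6 and 19.2 FPKM, a share of 0.355. In wild type replicate 3 and rbm-5(n5119) replicate 2 these forms covered only the start level, 33.7 and 29.8 FPKM. The end levels there were 46.4 and 54.4 FPKM, so these 2 shares leave out part of the signal.

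The forms without the intron together had the higher FPKM in each of these 3 libraries. Against the one spliced form that uses the same acceptor of exon 4, the retained share was 0.719, 0.537 and 0.534 in the same order. The intron spans 86 bases, I:6216592–6216677, and holds the stop codon that ends at 6216617. End events at that stop codon, 1 for each acceptor of exon 4, were listed in every library, joined loci included, and at 0 FPKM in all 18. By Fisher's exact test the 3 libraries without uaf-1(n4588) against 0 with it gave p = 0.206 (adjusted p = 1). As small a p was found for 1731 of 31362 events. Any splicing entry of rbm-5 was listed in 3 of the 6 wild type and rbm-5(n5119) libraries, and in 8 of the 12 others.

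Both acceptors of exon 4 were listed in 8 libraries. In wild type the long form, which starts at 6216296, took 0.539 and 0.519 of the pair in replicates 1 and 3, and in rbm-5(n5119) replicate 2 it took 0.480. In rbm-5(n5132) it took 0.833, 1 and 0.637 of the pair in replicates 1, 2 and 3. In the double mutant with n5132 it took 0.467 and 0.335 in replicates 1 and 2.

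The pair leaves out the forms that keep intron 4, which used the short acceptor in wild type and the long one in rbm-5(n5119). With these forms counted at the acceptor they use, the long share was 0.248 and 0.333 in wild type and 0.664 in rbm-5(n5119) replicate 2, which then lay inside the range of rbm-5(n5132).

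By either count all 3 rbm-5(n5132) libraries lay above the 2 wild type and the 2 double mutant libraries. Over the end level, the measure used for intron 2, this separation did not hold. There the long form was 53.8 of 101, 19.2 of 67.2 and 21.4 of 93.6 FPKM in rbm-5(n5132). It was 6.11 of 30.7 and 11.2 of 46.4 FPKM in wild type, and 42.9 of 91.7 and 8.55 of 59.9 FPKM in the double mutant. By the pair, neither the difference from wild type nor that from the double mutant passed the test. Against wild type the log2 ratio of long to other acceptor was 2.29 higher in rbm-5(n5132) (SE 1.03, 95% interval −0.21 to 4.79, limma adjusted p = 0.969 over 1880 events, of which 0.0532% passed). The double mutant was lower than rbm-5(n5132) by −2.99 (SE 1.03, 95% interval −5.48 to −0.49, limma adjusted p = 0.473 over 1814 events, of which 0.882% passed). In replicate 2 of rbm-5(n5132) the short form was listed at 0.

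**Figure D3:**
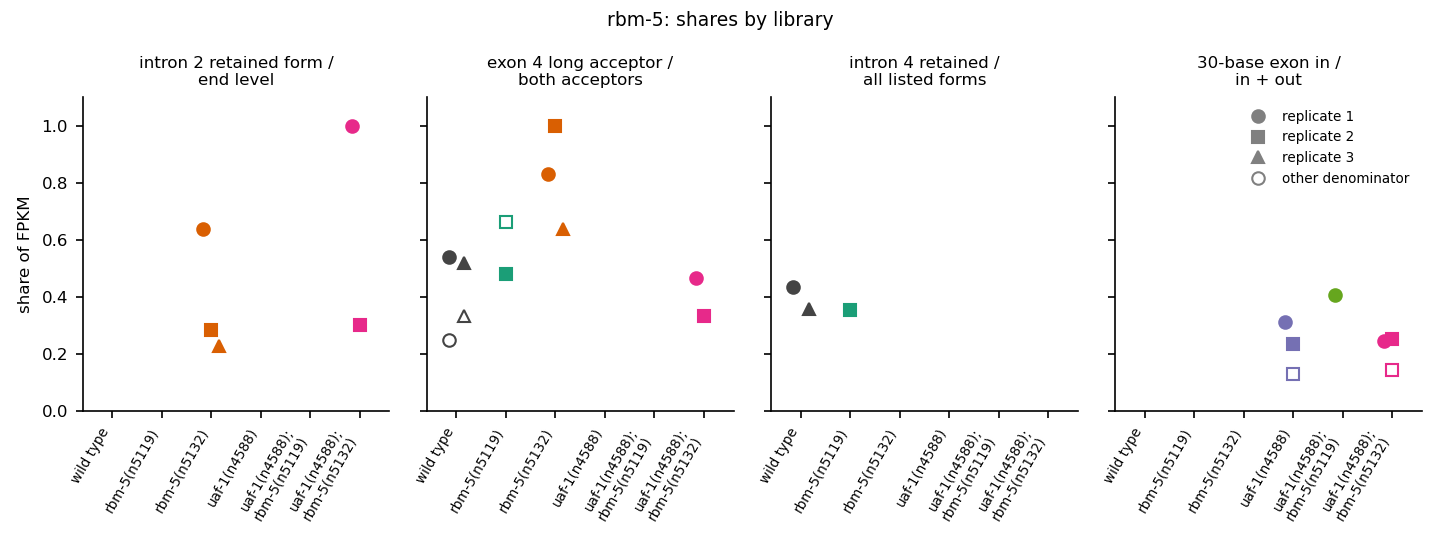
Share of FPKM (vertical axis, 0 to 1) taken by the named rbm-5 form in each library that lists it, by strain (horizontal axis); symbols give the replicate number. The retained intron 2 form takes 0.229–1 of the end level in n5132 strains, the long exon 4 form 0.637–1 of the pair in rbm-5(n5132) against 0.335–0.539 elsewhere, retained intron 4 0.355–0.434 of all listed forms, and the 30-base exon 0.234–0.406 of its pair in uaf-1(n4588) strains. Open symbols, drawn where they differ, count the intron 4 retained form in the exon 4 share (0.248, 0.333 and 0.664) and take the 30-base exon over the end level (0.130 and 0.143).

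Equal FPKM values tied several forms to a single assembled transcript. In rbm-5(n5132) replicates 2 and 3 the long form of exon 4 had the FPKM of the retained intron 2 form, 19.2 and 21.4. In the double mutant with n5132, replicate 2, the form with the 30-base exon had the 8.55 FPKM of the long form of exon 4.

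Intron 12, 43 bases at I:6218310–6218352, was listed as retained in uaf-1(n4588) replicate 1 only. Its 18.05 FPKM with and 39.8 FPKM without the intron equalled the values of the 30-base exon in that library. A start inside exon 4, with its first exon ending at 6216591, was listed in 3 libraries. It had 6.05 FPKM in wild type replicate 1 and 0 in wild type replicate 3 and rbm-5(n5119) replicate 2.

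Which libraries listed any form went with the bounds of the assembled locus. A splicing entry of rbm-5 was listed in 11 libraries and in none of the other 7. In these 7 the last exon ended exactly at the annotated stop codon. The 5 of them that name rbm-5 alone also began exactly at the annotated start codon, which none of the 11 did.

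Transcript levels were read at both ends of the gene. The start level is the summed FPKM of start events and the end level that of end events, in loci that name rbm-5 alone. The start level was 30.7 and 33.7 FPKM in wild type replicates 1 and 3. It was 24.7, 29.8 and 32.7 FPKM in rbm-5(n5119) and 31.1, 30.2 and 32.7 FPKM in uaf-1(n4588). These 3 strains overlapped.

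The strains with n5132 and the double mutant with n5119 each held 1 high library, always replicate 1. The start level was 64.6, 19.2 and 21.4 FPKM in rbm-5(n5132), and in the double mutant with n5119 it was 79.1, 42.8 and 33.6 FPKM. It was 91.7 and 18.1 FPKM in the double mutant with n5132, replicates 1 and 2. Without its replicate 1, rbm-5(n5132) lay below every wild type library and rbm-5(n5119) library. In these replicates 2 and 3 the start level held only the FPKM of the retained intron 2 form. Their end level exceeded it by 48.0 and 72.2 FPKM, the FPKM of the last exon. A low start level there does not show a low level of all rbm-5 forms. Replicate 1 was the group of libraries with the highest share in few start events, and the part of this in the high values was not tested.

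None of 12 contrasts passed for the start level (limma, lowest adjusted p = 0.772). The share of all tested genes that passed was 0.0234%, 0.0115% and 0.178% for rbm-5(n5119), rbm-5(n5132) and uaf-1(n4588) minus wild type, 0.0244% and 0.0854% for the double mutants minus uaf-1(n4588), and 0.136% and 0.036% for them minus their rbm-5 single mutant, n5119 first each time. It was 0.0117% and 0.0496% for n5132 minus n5119 without and with uaf-1(n4588), and 0%, 0.0525% and 0.657% for n5119, n5132 and uaf-1(n4588) averaged over backgrounds. The differences ranged from −0.23 to 0.73 on the log2(FPKM + 1) scale. For rbm-5(n5132) minus wild type the difference was −0.10 (95% interval −1.44 to 1.24), and without replicate 2 or 3 of rbm-5(n5132) it turned to 0.21 or 0.13. The start level of rbm-5 therefore does not check the genotype labels.

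The order of the strains differed at the other end. The end level was 30.7 and 46.4 FPKM in wild type replicates 1 and 3. It was 101, 67.2 and 93.6 FPKM in rbm-5(n5132), and 50.01, 54.4 and 77.1 FPKM in rbm-5(n5119). All 6 libraries of the rbm-5 single mutants lay above both wild type libraries.

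The uaf-1(n4588) libraries had end levels of 57.9, 54.5 and 64.7 FPKM. The double mutant with n5119 had 94.7, 69.1 and 72.4 FPKM, and that with n5132 had 91.7 and 59.9 FPKM. From high to low the means were 87.3 ± 17.8 (SD, n = 3) in rbm-5(n5132), 78.7 ± 13.9 (n = 3) and 75.8 ± 22.5 (n = 2) in the double mutants with n5119 and n5132, 60.5 ± 14.6 (n = 3) in rbm-5(n5119), 59.0 ± 5.203 (n = 3) in uaf-1(n4588) and 38.6 ± 11.1 (n = 2) in wild type. Every neighbour in this order overlapped except uaf-1(n4588) and wild type.

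That gap depended on the wild type library with the joined locus. Its end level at the rbm-5 stop codon was 57.1 FPKM, inside the ranges of rbm-5(n5119) and uaf-1(n4588). The other joined locus, in the double mutant with n5132, had 58.4 FPKM. With both included, rbm-5(n5132) at 67.2–101 FPKM lay above all 3 wild type libraries, as did both double mutants. For rbm-5(n5132) and the double mutant with n5132 this held only with the early ends summed. The double mutant with n5119 had 94.7, 69.1 and 72.4 FPKM at the last exon itself, all above the wild type libraries. At the last exon alone, rbm-5(n5132) replicate 2 had 48.0 FPKM and replicate 2 of the double mutant with n5132 had 41.8 FPKM, both below the 57.1 FPKM of the joined wild type locus.

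The largest end difference was rbm-5(n5132) minus wild type, 1.17 on the log2(FPKM + 1) scale (SE 0.285, 95% interval 0.55 to 1.78). With limma its unadjusted p was 0.00141, rank 20 of 8683 genes, and the adjusted p was 0.5999. No gene passed in that contrast (0%). With the highest end event in place of the sum the difference was 0.88 (limma adjusted p = 0.998). Averaged over backgrounds the difference was 0.75 for n5132 (adjusted p = 0.663, 0.0394% of genes passed; 0.48 and adjusted p = 0.683 with the highest end event) and 0.52 for n5119 (adjusted p = 0.395, 0.0393% passed).

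None of 12 end contrasts passed, and 5 had an unadjusted p under 0.05. Over all genes the share past the threshold was 0.0234%, 0% and 0.13% for rbm-5(n5119), rbm-5(n5132) and uaf-1(n4588) minus wild type, 0.0488% and 0.0976% for the double mutants minus uaf-1(n4588), and 0.135% and 0.036% for them minus their rbm-5 single mutant, n5119 first each time. It was 0.0117% and 0% for n5132 minus n5119 without and with uaf-1(n4588), and 0.0393%, 0.0394% and 0.657% for n5119, n5132 and uaf-1(n4588) averaged over backgrounds. For uaf-1(n4588) minus wild type the difference was 0.63 (adjusted p = 0.796, 0.13% passed), and for rbm-5(n5119) minus wild type 0.64 (adjusted p = 0.648, 0.0234% passed). The median of all genes in the last of these was −0.22, of opposite sign to the rbm-5 difference. After scaling the libraries to a common median the 2 differences were 0.64 and 0.77, in the order given.

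**Figure D4:**
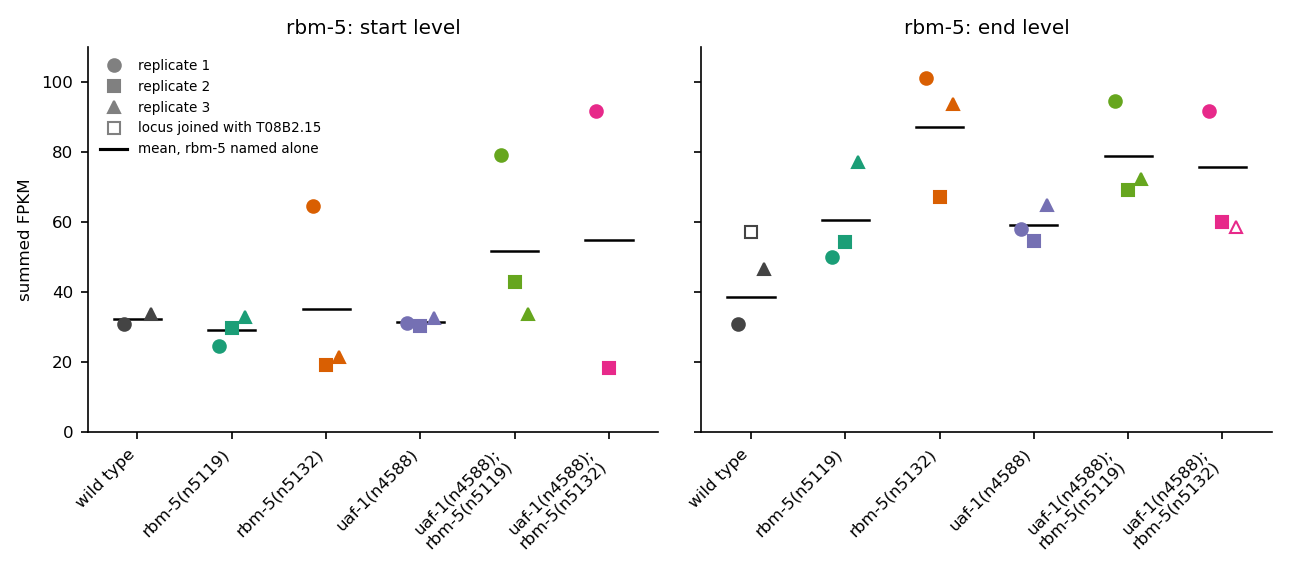
Start level (left) and end level (right) of rbm-5 in summed FPKM (vertical axis, linear, from 0) for each library, by strain (horizontal axis). Filled symbols are libraries that name rbm-5 alone, open symbols the 2 end levels of loci joined with T08B2.15, and bars the mean of the filled symbols. End levels of rbm-5(n5132), 67.2–101 FPKM with early ends summed, lie above all wild type values, and start levels overlap. At the last exon alone its replicates 2 and 3 had 48.0 and 72.2 FPKM, against 57.1 FPKM in the joined wild type locus.

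The end level was above the start level in 14 of 16 libraries and equal to it, within 0.001 FPKM, in wild type replicate 1 and in replicate 1 of the double mutant with n5132. Over all genes with at least 1 FPKM at either end, the levels were equal in 80.6–84.4% per library and the end was above the start in 8.23–10.6%. The end-to-start ratio was 1 and 1.38 in wild type. It was 2.03, 1.82 and 2.35 in rbm-5(n5119), 1.56, 3.50 and 4.37 in rbm-5(n5132), and 1.86, 1.81 and 1.98 in uaf-1(n4588).

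Single mutants thus had higher ratios than both wild type libraries. In the double mutants the ratio was 1.197, 1.616 and 2.152 with n5119 and 1 and 3.30 with n5132. The largest contrast, rbm-5(n5132) minus wild type, was 1.27 on the log2 scale (95% interval 0.16 to 2.37, limma adjusted p = 1, 0.0459% of 8724 genes passed), and 0 of 12 contrasts passed. For this ratio the share of genes called was 0.0232%, 0.0459% and 0.141% for rbm-5(n5119), rbm-5(n5132) and uaf-1(n4588) minus wild type, 0.146% and 0.158% for the double mutants minus uaf-1(n4588), and 0.0614% and 0.0477% for them minus their rbm-5 single mutant, n5119 first each time. It was 0.0234% and 0.0494% for n5132 minus n5119 without and with uaf-1(n4588), and 0.0391%, 0.0784% and 0.0278% for n5119, n5132 and uaf-1(n4588) averaged over backgrounds. In rbm-5(n5132) replicates 2 and 3 and the double mutant with n5132, replicate 2, the end exceeded the start by 48.0, 72.2 and 41.8 FPKM. These gaps equalled the FPKM of the last exon, so the start sums there left out the form that ends at it. Why a start sum leaves out a form, or falls below the end sum in the other libraries, is not given in the sources used here.

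The neighbours did not share these levels. The locus upstream, T08B2.15, was listed at 0 at both ends in all 16 libraries that list it alone. The gene downstream, rps-17, had a median end level of 1628 FPKM (763–3444 FPKM, 17 libraries) on the opposite strand. Whether the libraries kept strand is not given in the sources used here.

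Genes of 3′ splice site recognition and human RBM5 partners were read from a list of 14. Of these, 8 were tested in at least 1 contrast and 0 passed in any (lowest limma adjusted p = 0.378). In the contrasts with wild type and the averaged ones, 5–8 were tested and up to 4 had an unadjusted p under 0.05. The 4 were of 7 tested, in start level with n5119 averaged over backgrounds, where 12.1% of all genes did the same. Over these contrasts and both ends the share of all genes was 4.84–12.3%. The median start difference of the list was 0.40 for n5132 averaged over backgrounds, beside −0.01 over all genes, with 0.0525% of all genes called. It was 0.39 for n5119 averaged, beside −0.20, with 0% called. Over all 12 medians of the list, for both ends, the range was −0.29 to 0.40, and the highest rests on 5 of the 14 genes. For rbm-5(n5132) minus wild type the list median was 0.20 at the start and 0.08 at the end.

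The 4 genes of the list with the smallest p in the contrasts averaged over backgrounds are named, with their values in those contrasts. The SF3B1 relative sftb-1, of the U2 snRNP, differed by 0.49 in start level with n5132 (adjusted p = 0.715). In rbm-5(n5132) minus wild type its start level differed by 0.13 (limma adjusted p = 0.998). The helicase ddx-15 differed by 0.67 in start level with n5119 (adjusted p = 0.404). Its end level in the same contrast differed by −0.15 (limma adjusted p = 0.823), the opposite sign. In rbm-5(n5119) minus wild type it differed by 0.23 at the start and −0.33 at the end. The gene uaf-1 itself differed by 0.48 in end level with n5119 (adjusted p = 0.395), and rnp-6, a relative of the poly-U binding factor PUF60, by 0.28 in start level with uaf-1(n4588) (adjusted p = 0.642).

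The uaf-1 level was 176 ± 47.8 FPKM (SD, n = 3) in wild type, 98.8 ± 29.1 in uaf-1(n4588), and 156 ± 15.4 and 176 ± 34.4 in its double mutants with n5119 and n5132. The 2 double mutants thus averaged nearer to wild type than uaf-1(n4588) did. Against wild type the uaf-1(n4588) single mutant differed by −0.83 on the log2(FPKM + 1) scale in end level (SE 0.248, limma adjusted p = 0.378). The difference in uaf-1(n4588) averaged over backgrounds was −0.38 (limma adjusted p = 0.495 for the end level).

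Genes most like rbm-5 were ranked by Pearson's r over the 16 libraries, on log2 levels centred on each library's median. These are descriptions over 16 points that share libraries, with no test. For start levels, of 3124 genes, they were C14B9.10 (r = 0.731), aak-2, an AMP-activated kinase subunit (0.678), Y39A1A.27 (0.678), unc-76, an axonal transport protein (0.664), and the histone deacetylase hda-1 (0.644). For end levels, of 3136 genes, they were the nucleoporin npp-9 (0.844), the phosphofructokinase pfk-1.1 (0.832), cit-1.1, a cyclin T (0.832), Y54G11A.1 (0.820) and cra-1 (0.820). The lists for the 2 ends share no gene.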

How the data were processed

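Each of 18 libraries has 1 deposited list of transcript events with FPKM (fragments relative to transcript length and to the mapped total), per the file headers. Per the submitters' processing notes, the authors used Bowtie2 and TopHat2 2.0.12 with the WBcel235 assembly. The assembler, the event caller and any scaling between libraries are not given in the sources used here. Locus names differ between libraries, so an event is listed only where that library's assembly held it. Without counts, depth and counting error are unknown, and a value of exactly 0 can be a failed estimate.

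The lists name rbm-5 by its sequence name, T08B2.5, matched through RefSeq gene tables. Of 20574 labels naming 1 gene, 295 had no match. Start and end levels were summed FPKM of start and end events, on the log2(FPKM + 1) scale. Splicing was log2((FPKM with + 1) / (FPKM without + 1)), so changes of low forms are understated. Features were fitted if every strain compared had 2 or more libraries listing them and their mean reached 1 FPKM, using limma 3.58.1 (R 4.3.3) over all 18 libraries, 1 mean per strain, with an intensity trend for levels only. Intervals are limma's. Benjamini-Hochberg adjustment ran over all features of a contrast, with a threshold of 0.05. Contrasts with wild type share its libraries.

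Listing was tested with Fisher's exact test (scipy 1.17.1) for every event listed in 1–17 libraries. Alternatives changed the pseudocount (0.1 FPKM), minimum mean, scaling, libraries, replicate block, joined loci, summing of events and coordinate match (within 10 bases). The scripts were tested on simulated data. The genes named were rbm-5, its neighbours, up to 4 genes of the list of 14 by smallest p in averaged contrasts, and the 5 most alike at each end, with a mean of at least 5 FPKM. The gene, lists and tests were chosen with earlier results of these data known.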

Additional observations from a re-analysis of the deposited data

How the results depend on the processing

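No alternative brought a level, ratio, splicing or listing result of rbm-5 past the threshold. For listing results this could hardly have been otherwise, since a single event cannot pass over so many events. Direction was kept by all splicing and listing results under every alternative that gave a value, and by 154 of 173 alternatives for start levels, 171 of 173 for end levels and 153 of 161 for ratios. Start levels against wild type turned from −0.15, −0.10 and −0.04 (n5119, n5132, uaf-1(n4588)) to 1.35, 1.40 and 1.46 with joined loci added, whose start belongs to T08B2.15, and to 0.0015, 0.052 and 0.11 with the highest start event. With joined loci the double mutant with n5132 turned to −1.23 against uaf-1(n4588) and −1.17 against rbm-5(n5132), and ratios to −0.91, −0.43 and −1.03 against wild type, 1.45 and 0.85 for that double mutant, and −0.56 for n5119 averaged. The start level of rbm-5(n5132) minus rbm-5(n5119), 0.05, turned to −0.028 after scaling and −0.60 in replicates 2 and 3 only. The cause was not tested for these. Leaving out single libraries moved that difference over −0.49 to 0.36, rbm-5(n5132) minus wild type over −0.64 to 0.21, the 2 double mutants' difference over −0.49 to 0.11 and n5132 averaged over −0.13 to 0.30. For the 2 double mutants it moved the end level over −0.16 to 0.067 and the ratio over −0.046 to 0.37. For the end level of rbm-5(n5132) minus wild type it gave 1.050 to 1.34 (lowest adjusted p = 0.322). The retained intron 2 share averaged 1 by the event's own forms in both n5132 strains, and 0.385 and 0.651 over the end level. The intron 4 share averaged 0.396 in wild type and was 0.355 in rbm-5(n5119), and 0.628 and 0.534 by the event's pair alone. The exon 4 long share averaged 0.529 and 0.480 there, and 0.290 and 0.664 with the intron 4 form counted. The 30-base exon share of the double mutant with n5132 averaged 0.248, and 0.194 over the end level. These share alternatives were added after seeing the data.

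Replicate numbers recur in every strain, but the correlations of same-numbered deviations (−0.36 to 0.41) all exceeded 0.1 in only 2 of 15 strain pairs, wild type with uaf-1(n4588) and rbm-5(n5132) with its double mutant. By this measure the numbers were not taken as pairing the libraries, although replicate 1 stood apart in all 6 strains. With a replicate block, start levels against wild type turned to 0.038, 0.089 and 0.15, the end level between double mutants to 0.021 and the ratio of the double mutant with n5132 minus uaf-1(n4588) to 0.086. The end level of rbm-5(n5132) minus wild type was 1.28 (adjusted p = 0.409) with the block.

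Over all genes, calls per contrast ran from 0 to 47 for start levels and 0 to 57 over alternatives, and from 0 to 47 and 0 to 59 for end levels. Ratios gave 2 to 13 calls, and 1 to 22 over alternatives, except 2726 in place of 4 for the difference between double mutants after scaling. Leaving out wild type replicate 1 or 3, and using replicates 2 and 3 only in contrasts with wild type or the double mutant with n5132, gave no value, since fewer than 2 libraries named rbm-5 alone. Without read counts, the depth needed to see a minor form cannot be stated.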
